A study of Mus musculus with 9 samples.

Results

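The follicular T cell genes are 9 of the 23420 genes in the deposited expression table, chosen by symbol as Bcl6, Cxcr5, Sh2d1a, Slamf6, Il6ra, Tox2, Ascl2, Btla and Sostdc1, and all 9 were found. They were measured by bulk RNA sequencing of regulatory T cells (Tregs), a CD4 lineage marked by the factor FOXP3 that dampens immunity, in 3 groups of 3 libraries. Arthritic synovial Tregs came from the digested paws of mice with collagen-induced arthritis, a model of inflammatory joint disease. Arthritic node Tregs came from the draining lymph nodes of such mice, and control node Tregs from the draining nodes of mice given no treatment. All 3 groups are labelled wild type, and all cells were sorted on YFP from a Foxp3 reporter, so every animal carried it. Strain and age are not given in the labels. The titles number the arthritic mice, and each number has a joint and a node library.

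Follicular helper T cells enter B cell follicles and help germinal centre B cells, and a Treg subset, the follicular regulatory T cell, takes up the same program to restrain that help. The repressor BCL6 directs the program, the chemokine receptor CXCR5 carries cells toward the follicle, and the SLAM receptors with their adaptor SAP hold T cells on B cells. BLIMP-1, encoded by Prdm1, is the known antagonist of BCL6, and IL-2 signalling through STAT5 favours it.

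Depth was 11300406 to 12855435 gene-assigned reads in a library, with 11770 to 13118 genes detected. Values are normalized read counts, reads divided by a size factor per library, so a library at 0 had no read, and 3 reads, the limit that a count of 0 allows, correspond to 2.61 to 3.52. Intervals and limits of this kind cover counting error only. Each fold change is the gap between group means of log2(value + 1), given with limma's standard error, and a gene is called changed at a Benjamini-Hochberg adjusted p under 0.05 over all 11357 genes tested. The added 1 narrows gaps between low values. For genes with libraries at or near 0, the fold change can also depart from the ratio of group means. For Sostdc1 in synovial over control node Tregs these were 2.47 and 0.48. Foxp3 was read in all 9 libraries, at 413 to 538 in synovial, 222 to 294 in arthritic node and 169.7 to 404 in control node Tregs. The Treg genes Foxp3, Ctla4, Ikzf2 and Il2ra and the general T cell genes Cd4 and Cd3e together summed to 97526 to 102147 in synovial, 39877 to 46077 in arthritic node and 44039 to 48824 in control node Tregs, and Ctla4, Ikzf2 and Il2ra, 3 of these 6, rose in synovial over arthritic node Tregs. In sorted bulk cells, fewer follicular cells and less RNA per cell cannot be told apart.

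Windows before the start sites of Bcl6, the member that rose in the joint, and of Slamf6 and Il6ra, the members with the smallest adjusted p among those that fell there, show the sequence next to these changes. RefSeq windows (GRCm38.p6) were at hand for 6 of the 9 genes, and the 250 bases before the start are printed 5′ to 3′ on the gene's strand. Capitals mark matches on either strand to TTCNNNGAA, the form that STAT factors bind, to CTTTGA, that of TCF1 and LEF1, to TGTTTAC, that of FOXO factors, or to CANNTG, the E-box that ASCL2 and E proteins bind. The windows are chr16:23988853-23989102 and chr16:23981284-23981533 for the 2 Bcl6 starts (minus strand), chr1:171917212-171917461 for Slamf6 (plus strand) and chr3:89913197-89913446 for Il6ra (minus strand).
Bcl6, outer start: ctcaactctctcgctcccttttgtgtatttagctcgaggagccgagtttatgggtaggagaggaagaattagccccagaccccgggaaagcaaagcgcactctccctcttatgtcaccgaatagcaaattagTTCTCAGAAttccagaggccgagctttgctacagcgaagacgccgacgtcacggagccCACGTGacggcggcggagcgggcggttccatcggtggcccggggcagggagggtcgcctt
Bcl6, inner start: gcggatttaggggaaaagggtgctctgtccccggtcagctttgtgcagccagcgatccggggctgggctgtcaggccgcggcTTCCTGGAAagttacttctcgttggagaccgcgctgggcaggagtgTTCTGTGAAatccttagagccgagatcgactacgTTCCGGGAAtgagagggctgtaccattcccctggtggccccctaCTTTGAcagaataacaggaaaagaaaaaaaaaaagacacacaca
Slamf6: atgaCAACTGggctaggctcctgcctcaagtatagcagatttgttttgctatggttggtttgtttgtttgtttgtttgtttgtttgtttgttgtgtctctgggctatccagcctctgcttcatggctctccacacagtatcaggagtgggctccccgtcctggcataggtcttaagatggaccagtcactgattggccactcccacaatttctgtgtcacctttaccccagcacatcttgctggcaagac
Il6ra: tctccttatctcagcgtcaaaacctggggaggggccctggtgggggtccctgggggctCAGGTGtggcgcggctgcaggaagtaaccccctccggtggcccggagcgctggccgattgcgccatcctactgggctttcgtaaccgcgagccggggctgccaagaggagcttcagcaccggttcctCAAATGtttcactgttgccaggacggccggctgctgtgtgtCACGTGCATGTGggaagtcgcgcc
The outer Bcl6 window held 1 STAT-form match, TTCTCAGAA, 118 bases before the start. The inner window held 3, TTCCTGGAA, TTCTGTGAA and TTCCGGGAA, and 1 TCF-form match. Of 32536 mouse windows of this length, 7.04% held the STAT form, 13.9% the TCF form, 3.17% the FOXO form and 66.2% an E-box. No STAT, TCF or FOXO form stood in the Slamf6 or Il6ra window, which held 1 and 4 E-boxes. Tox2, Ascl2 and Btla, the other genes with windows, had no STAT or FOXO form in any of them. Some of the Tox2 windows held a TCF form. A match of letters describes the window and is not a binding site.

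In the tissue comparison, arthritic synovial against arthritic node Tregs, the 9 genes split. Bcl6 rose about 4-fold, while Cxcr5, Sh2d1a, Slamf6, Il6ra, Ascl2 and Btla fell. Tox2 and Sostdc1 did not pass. That is 1 gene higher and 6 lower of 9, beside 17.9% higher and 15.9% lower of all genes tested, or 33.8% in either direction. The median over the 9 was -0.65 and that over all genes tested was -7.25e-05. The libraries of the 2 groups did not overlap for 7 of the 9 genes, 2 of them higher in synovium, beside 25.2% of all genes tested, and 5 lower, beside 23.0%. Without the mean-variance trend 4 members were called, and 3 without synovial library 1 or without arthritic node library 1, 4 without arthritic node library 3. With a library left out, 3039 to 3451 of the 11357 genes tested were called. Quantile normalization moved the median of all genes to -0.12 and the calls over all genes to 1711 higher and 2344 lower, against 2034 and 1810, and left 1 member higher and 6 lower.

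**Figure D1:**
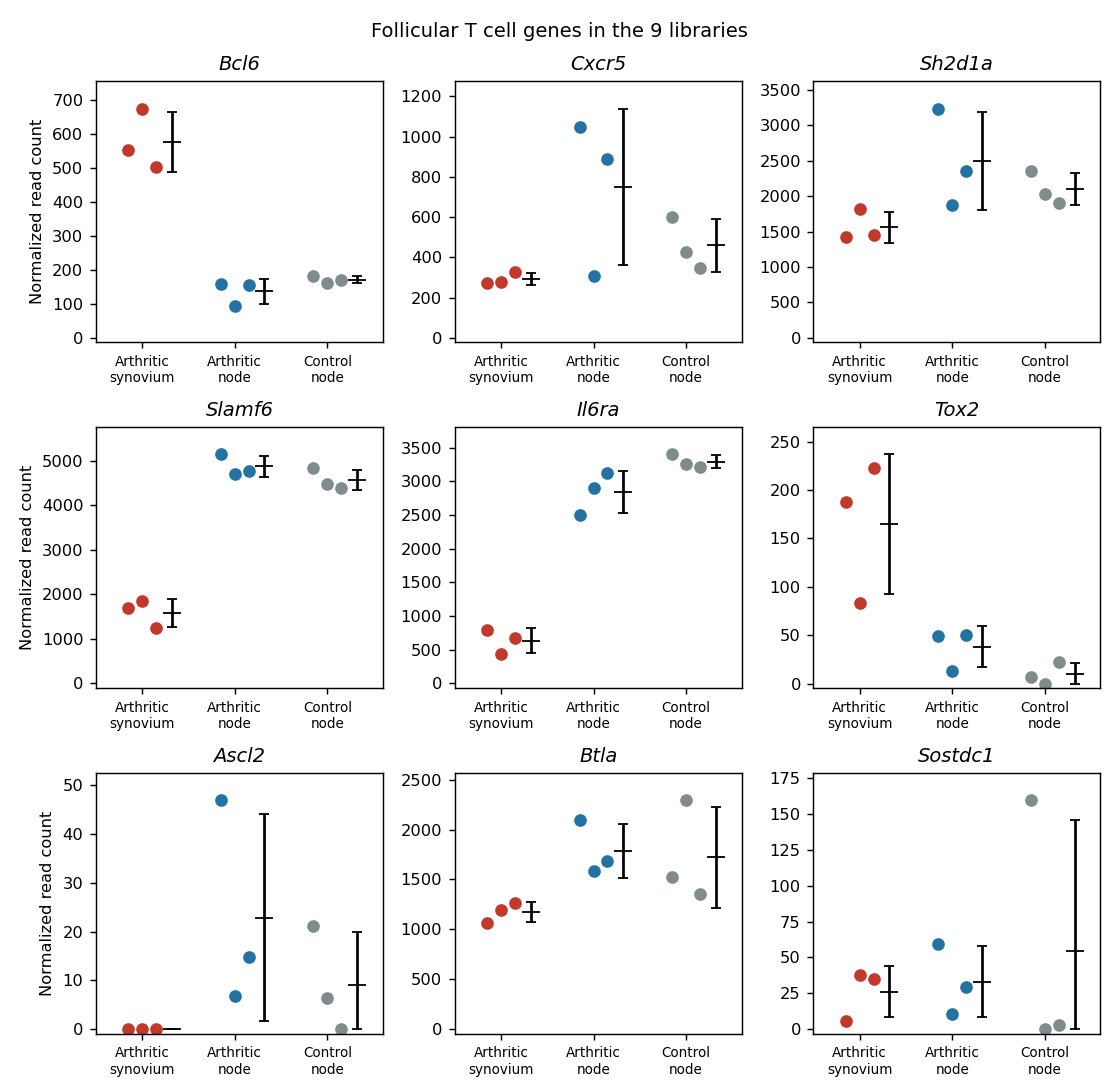
Normalized read count (vertical axis, linear, a scale for each gene) of the 9 follicular genes in arthritic synovial (red), arthritic node (blue) and control node (grey) Tregs. Points are libraries 1 to 3 from left to right, and bars show mean ± SD of 3 libraries, drawn no lower than 0; Bcl6 stands at 502 to 675 in synovium, above the 94.3 to 182 of the 6 node libraries, while Slamf6 and Il6ra lie far below them.

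Transcription factors went in different directions. Bcl6 (chromosome 16, 23965052 to 23988852, minus strand, GRCm38) was at 552, 675 and 502 in synovial Tregs, against 159, 94.3 and 155 in arthritic node Tregs and 182, 159.8 and 171 in control node Tregs. Each synovial library stood above all 6 node libraries. The rise over arthritic nodes was 2.10 ± 0.27 (adjusted p = 8.05e-05), 4.29-fold, and it was called under every alternative and with each library left out.

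Tox2 (chromosome 2, 163203125 to 163324170, plus strand) encodes an HMG-box factor that promotes follicular helper T cell development. It was at 187, 83.4 and 222 in synovial Tregs, against 49.6, 13.5 and 50.7 in arthritic node Tregs and 7.03, 0 and 22.8 in control node Tregs. No synovial library overlapped a node library, and the difference from arthritic nodes was 2.18 ± 1.02 (adjusted p = 0.121). With the mouse number as a block, in a fit of the 2 arthritic groups, it passed (adjusted p = 0.00522). It also passed in those groups without the block (adjusted p = 0.0188), with 5 added in place of 1 (adjusted p = 0.0344) and with DESeq2 on recovered reads (adjusted p = 0.0455), and the authors' deposited table lists 2.09 with an adjusted p of 0.00215.

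Ascl2 (chromosome 7, 142966829 to 142969264, minus strand) encodes a basic helix-loop-helix factor known to switch on Cxcr5 in follicular helper cells. It had no read in the 3 synovial libraries, against 47, 6.73 and 14.9 in arthritic node Tregs and 21.1, 6.32 and 0 in control node Tregs. Those node values are few reads, 54, 7 and 17 in arthritic and 21, 7 and 0 in control nodes. Set against 3 reads per library, Ascl2 was at least 6.72-fold lower in synovial than in arthritic node Tregs (adjusted p = 0.0283). That limit was 3.17-fold without arthritic node library 1, and 6.63- to 9.09-fold with any other library left out. Adjusted p was 0.0559 after removing synovial library 1, 0.0511 after removing synovial library 2, 0.128 after removing arthritic node library 1 and 0.0676 after removing arthritic node library 3.

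The receptors for follicular homing and IL-6 fell. Cxcr5 (chromosome 9, 44511787 to 44561877, minus strand) was at 271, 276 and 327 in synovial Tregs, against 1049.6, 309.8 and 890.1 in arthritic node Tregs and 602, 427 and 349 in control node Tregs. Arthritic node library 2 stood within the synovial range, while libraries 1 and 3 stood far above it. The fall was by 1.19 (SE 0.38, adjusted p = 0.0299). Adjusted p missed the threshold on removal of any synovial library (0.0826, 0.0715 and 0.0577 for libraries 1, 2 and 3), of arthritic node library 1 (0.136) or of library 3 (0.117), and without a mean-variance trend (0.0853).

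Il6ra (chromosome 3, 89864059 to 89913196, minus strand) encodes the ligand-binding chain of the IL-6 receptor, a signal known to raise Bcl6 in activated T cells. It was at 794, 433 and 669 in synovial Tregs, against 2501, 2906 and 3119 in arthritic node Tregs and 3402, 3265 and 3213 in control node Tregs. Every synovial library lay below every node library. At 21.7% of the arthritic node level on the log2(value + 1) scale, it fell by 2.21 (SE 0.19, adjusted p = 2.92e-06), the smallest remaining level among the members with reads in synovium. No alternative and no left-out library ended this call.

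Slamf6 and Sh2d1a, the SLAM receptor and adaptor genes among the members, fell as well. Slamf6 (chromosome 1, 171917515 to 171953170, plus strand), a SLAM receptor that binds itself on neighbouring cells, was at 1687, 1842 and 1239 in synovial Tregs, against 5148, 4704 and 4784 in arthritic node Tregs and 4829.7, 4479 and 4394 in control node Tregs. The groups were far apart, with a fall by 1.64 (SE 0.14, adjusted p = 2.58e-06) that was called under every alternative. Sh2d1a (chromosome X, 42502453 to 42529330, plus strand), which encodes the adaptor SAP that SLAM receptors recruit, was at 1417, 1814 and 1455 in synovial Tregs, against 3240.2, 1876 and 2363 in arthritic node Tregs and 2354, 2034 and 1910.0 in control node Tregs. Synovial library 2 and arthritic node library 2 nearly met. Its fall by 0.65 (SE 0.18, adjusted p = 0.0160) missed the threshold on removal of synovial library 1 (adjusted p = 0.0615), synovial library 3 (0.0551) or arthritic node library 1 (0.0729), and without a mean-variance trend (0.0629).

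Btla (chromosome 16, 45224315 to 45257670, plus strand) encodes an inhibitory receptor that binds HVEM. It was at 1059, 1195 and 1261 in synovial Tregs, against 2097, 1579.8 and 1683 in arthritic node Tregs and 1521, 2295 and 1350.3 in control node Tregs. The synovial libraries lay below all 6 node libraries, by a small margin for control library 3. The fall by 0.60 (SE 0.19, adjusted p = 0.0264) missed the threshold on removal of synovial library 1 (adjusted p = 0.0909), arthritic node library 1 (0.112) or library 3 of that group (0.0515), and without a mean-variance trend (0.0807).

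Sostdc1 (chromosome 12, 36314139 to 36318452, plus strand) encodes a secreted antagonist of BMP and WNT signals. It was at 5.51, 37.6 and 34.8 in synovial Tregs, against 59.1, 10.6 and 29.7 in arthritic node Tregs and 159.6, 0 and 2.74 in control node Tregs. All 3 groups overlapped. The difference between synovial and arthritic node Tregs was -0.42 ± 1.54 (adjusted p = 0.865), and its sign turned without synovial library 1 (0.42) or arthritic node library 1 (0.14).

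**Figure D2:**
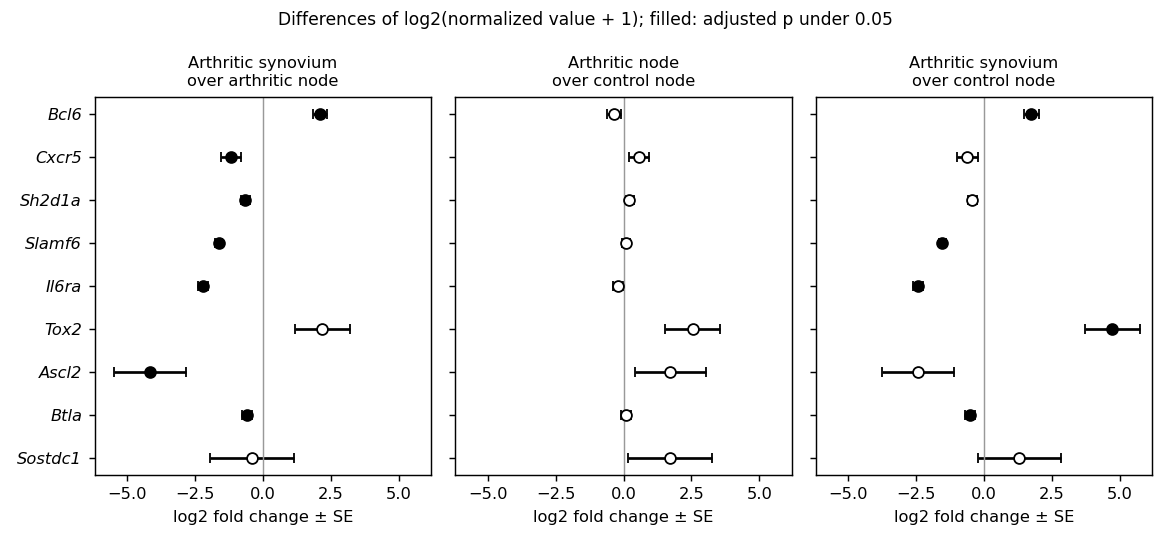
Difference of mean log2(normalized value + 1) for the 9 genes (horizontal axis, bars are the limma standard error) in arthritic synovium over arthritic node, arthritic node over control node and arthritic synovium over control node. Filled points passed an adjusted p under 0.05: 7, 0 and 5 of 9 genes.

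Exons of some members overlap other genes, and the strand setting of the authors' counting is not given. On the opposite strand, Tenm1 covers 26.6% of the merged exon bases of Sh2d1a and Bcl9l covers 3.30% of those of Cxcr5. Tenm1 averaged 0.749 in synovial Tregs and 0 in arthritic and control node Tregs. Bcl9l averaged 20.1 in synovial, 82.7 in arthritic node and 98.0 in control node Tregs. The overlap was 0.313% for Bcl6 and 2.80% for Il6ra, from the predicted genes Gm37419 and Gm42809, which have no values here.

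Levels can be roughly set against each other between genes once scaled per kilobase of merged exon. That length pools all annotated exons of a gene, and which transcripts were expressed was not measured. Btla led in synovial Tregs at 345 ± 30.3 normalized reads per kilobase (SD, n = 3), followed by Sh2d1a at 284 ± 39.8, within their spread of each other, and by Slamf6 at 147 ± 28.9. Cxcr5 at 87.4 ± 9.30, Bcl6 at 86.1 ± 13.3 and Il6ra at 73.1 ± 21.2 did not differ beyond their spread, and Tox2 at 48.3 ± 21.3 lay within the spread of Il6ra. In arthritic node Tregs the leading genes were Btla (526 ± 80.5), Sh2d1a (453 ± 126) and Slamf6 (450 ± 21.9), which lay within their spread. Il6ra at 329 ± 36.3 and Cxcr5 at 225 ± 117 came next, far above Bcl6 at 20.3 ± 5.44. Control node Tregs had Il6ra at 381 ± 11.3, Cxcr5 at 138 ± 39.0 and Bcl6 at 25.5 ± 1.63 per kilobase. By this measure Bcl6 stood level with Cxcr5 in the joint and far below it in both kinds of node.

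**Figure D3:**
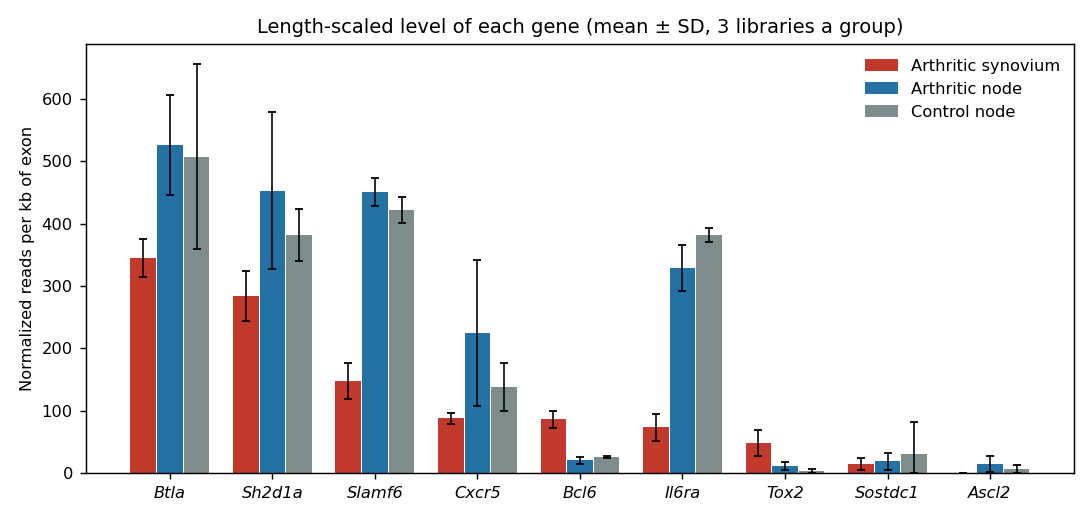
Normalized reads per kilobase of merged exon (vertical axis, linear from 0) for the 9 genes, as mean ± SD of 3 libraries with error bars drawn no lower than 0, in arthritic synovial, arthritic node and control node Tregs. Bcl6 and Cxcr5 stand level in synovium at 86.1 and 87.4, and at 20.3 and 225 in arthritic nodes.

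Within the arthritic node group, libraries 1 and 2 stood at opposite ends for most members. Arthritic node library 2 was the lowest of its group for 8 of the 9 genes, all but Il6ra, beside 30.8% of all genes tested, and arthritic node library 1 was the highest for 7, beside 31.6%. The deviation of library 2 from the group mean was -1.09 for Cxcr5, -1.22 for Ascl2, -1.21 for Tox2, -0.49 for Bcl6 and -0.05 for Slamf6 on the log2 scale. Il21, the follicular helper cytokine, was at 41.7, 0 and 11.4 in arthritic node libraries 1, 2 and 3, and also lowest in library 2. Of the other follicular surface and secreted genes with reads, described below, Il4 and Cd40lg were lowest there too. Icos, Il21r and S1pr2 were instead lowest in library 1, and Pdcd1, Cd200, Cxcr4 and Tnfsf8 in library 3. Among control nodes, library 1 was the highest for 7 of the 9 genes, beside 34.5% of all genes tested. In synovial Tregs no library was the lowest or the highest for more than 4.

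**Figure D4:**
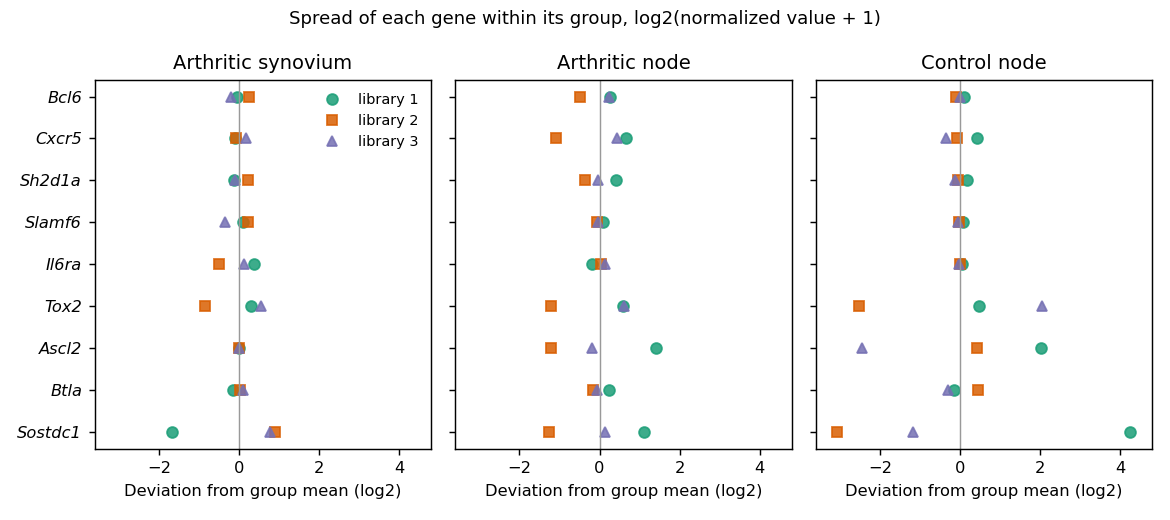
Deviation of each library from its group mean in log2(normalized value + 1) (horizontal axis) for the 9 genes in arthritic synovial, arthritic node and control node Tregs, with a symbol for each library number. In arthritic nodes library 2 lies at -1.09 for Cxcr5 and below 0 for every gene except Il6ra.

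In the disease comparison, arthritic against control node Tregs, none of the 9 genes was called by limma, edgeR or DESeq2, beside 0.343% of all genes tested by limma (39 genes, 0.335% higher and 0.00881% lower). At an unadjusted p under 0.05 limma gave 1 of the 9, beside 1031 of the 11357 genes tested. That gene was Tox2, with a difference of 2.54 ± 1.02 (adjusted p = 0.488). The median over the 9 was 0.22, and over all genes tested 0.01. Cxcr5 averaged 749.9 ± 389 in arthritic and 459 ± 130 in control node Tregs (SD, n = 3), a difference of 0.56 ± 0.38 (adjusted p = 0.740). Bcl6 averaged 136 ± 36.4 in arthritic and 171 ± 10.9 in control node Tregs, a difference of -0.36 ± 0.27 (adjusted p = 0.765). The libraries did not overlap for Bcl6 and Il6ra, both lower in arthritic nodes, beside 7.03% of all genes tested that were lower and 7.89% that were higher without overlap. Slamf6 differed by 0.10 ± 0.14 (adjusted p = 0.900) and Btla by 0.08 ± 0.19 (adjusted p = 0.952).

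Arthritic synovial and control node Tregs differ in both tissue and disease, and this comparison shares its libraries with the others. It called 5 of the 9 genes, beside 40.1% of all genes tested, 21.6% higher and 18.5% lower. Bcl6 (1.74 ± 0.27, adjusted p = 0.000268) and Tox2 (4.73 ± 1.02, adjusted p = 0.00296) were higher, while Slamf6 fell by 1.54 (SE 0.14, adjusted p = 3.26e-06), Il6ra fell by 2.42 (SE 0.19, adjusted p = 9.91e-07) and Btla fell by 0.52 (SE 0.19, adjusted p = 0.0431). For Btla, removal of synovial library 1, 2 or 3 gave adjusted p of 0.132, 0.0721 and 0.0607, and removal of control node library 1 or 2 gave 0.0534 and 0.184. It also missed without a filter on low values (0.0593), without the trend (0.107) and in the 2 groups alone (0.0668). Libraries did not overlap for 7 genes, higher in synovium for Bcl6 and Tox2 (beside 26.2% of all genes tested) and lower for Cxcr5, Sh2d1a, Slamf6, Il6ra and Btla (23.8%). Cxcr5 differed by -0.62 ± 0.38 (adjusted p = 0.214) and Sh2d1a by -0.43 ± 0.18 (adjusted p = 0.0795), which passed in the 2 groups alone (0.0458), under quantile normalization (0.0119) and without synovial library 2 (0.0492). Ascl2, without a read in synovium, was at least 2.69-fold lower against 3 reads per library (adjusted p = 0.161). It passed without control node library 3 (0.0412, at least 4.03-fold lower). Without control node library 1, the control mean of 3.16 lay under the 3.40 that 3 reads correspond to, and no limit could be given. Sostdc1 differed by 1.30 ± 1.54 (adjusted p = 0.535) and passed only when control node library 1, at 159.6, was left out (3.43, adjusted p = 0.0372).

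The other genes of the follicular program also split in the tissue comparison. Of 11 further surface and secreted genes 9 could be tested, of which 5 rose and 1 fell, with a median of 1.17. Pdcd1, which encodes the inhibitory receptor PD-1, was at 12502, 12657 and 16972 in synovial Tregs, against 1908, 1772 and 1751 in arthritic node Tregs, a rise of 2.94 ± 0.12 (adjusted p = 1.26e-08). Icos, a costimulatory receptor needed for follicular cells, rose by 2.07 ± 0.16, Cxcr4, the receptor that draws cells to the germinal centre dark zone, by 2.22 ± 0.46, Il21r by 1.30 ± 0.13 and Tnfsf8, the CD30 ligand, by 1.17 ± 0.15. Cd200, an immunoglobulin family ligand, fell by 0.98 (SE 0.27, adjusted p = 0.0141), a call that removal of synovial library 3 (adjusted p = 0.0605) or of arthritic node library 1 (0.0700), or leaving out the mean-variance trend (0.0596), ended. Cxcl13, the CXCR5 ligand, had no read in any of the 9 libraries.

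Among 12 transcription factor genes listed as favouring the program, 5 rose and 4 fell, with a median of 0.29. The list holds Id3, whose product inhibits E proteins and is known to restrain follicular regulatory T cells, and without it 5 of 11 rose and 3 fell, with a median of 0.60, counts made after its values were seen. Tcf7, which encodes TCF1, was at 594, 746 and 307 in synovial Tregs, against 4063, 4060.2 and 3970.3 in arthritic node Tregs, and fell by 2.97 (SE 0.25, adjusted p = 2.64e-06). Its relative Lef1 fell by 1.75 (SE 0.15). Id3 fell by 2.91 (SE 0.22). Pou2af1 fell by 3.87 (SE 1.35, adjusted p = 0.0432), a call lost on removal of 5 of the 6 libraries in turn (adjusted p of 0.0530 to 0.153), all but synovial library 2, with edgeR (0.145) or DESeq2 (0.0795), without a filter on low values (0.0669) and without the trend (0.0897). The STAT that carries IL-6 and IL-21 signals, Stat3, rose by 2.43 ± 0.16 (adjusted p = 2.75e-07), Batf by 1.51 ± 0.14, Maf by 1.29 ± 0.22 and Tox by 0.76 ± 0.11. Irf4 rose by 0.75 ± 0.20 (adjusted p = 0.0122), with 0.0617 on removal of synovial library 1 and 0.0538 on removal of arthritic node library 2.

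Of 11 genes known to oppose the program, 6 rose and 3 fell, with a median of 1.08, and with Id3 placed here 6 of 12 rose and 4 fell, with a median of 0.73. Prdm1 was at 553, 310.0 and 652 in synovial Tregs, against 123, 172 and 234 in arthritic node Tregs and 67.2, 41.5 and 63.9 in control node Tregs, and rose by 1.49 ± 0.37 over arthritic nodes (adjusted p = 0.00797). Bcl6 and its antagonist were thus both higher in the joint. Id2, an inhibitor of E proteins that opposes Cxcr5 induction, rose by 3.39 ± 0.18 (adjusted p = 6.83e-08), Stat5a by 1.96 ± 0.21, Stat5b by 1.15 ± 0.13 and the IL-2 receptor genes Il2ra by 1.74 ± 0.12 and Il2rb by 1.07 ± 0.23. Foxp1 fell by 1.17 (SE 0.15) and Ccr7, the receptor that keeps T cells in the T zone, fell by 0.85 (SE 0.12). S1pr1, an egress receptor, fell by 0.53 (SE 0.16, adjusted p = 0.0220), and removal of synovial library 1 (0.0578) or 3 (0.0854), or of arthritic node library 2 (0.0855) or 3 (0.0863), or leaving out the trend (0.0855), ended that call. The Il2rb call was lost under quantile normalization (adjusted p = 0.101).

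**Figure D5:**
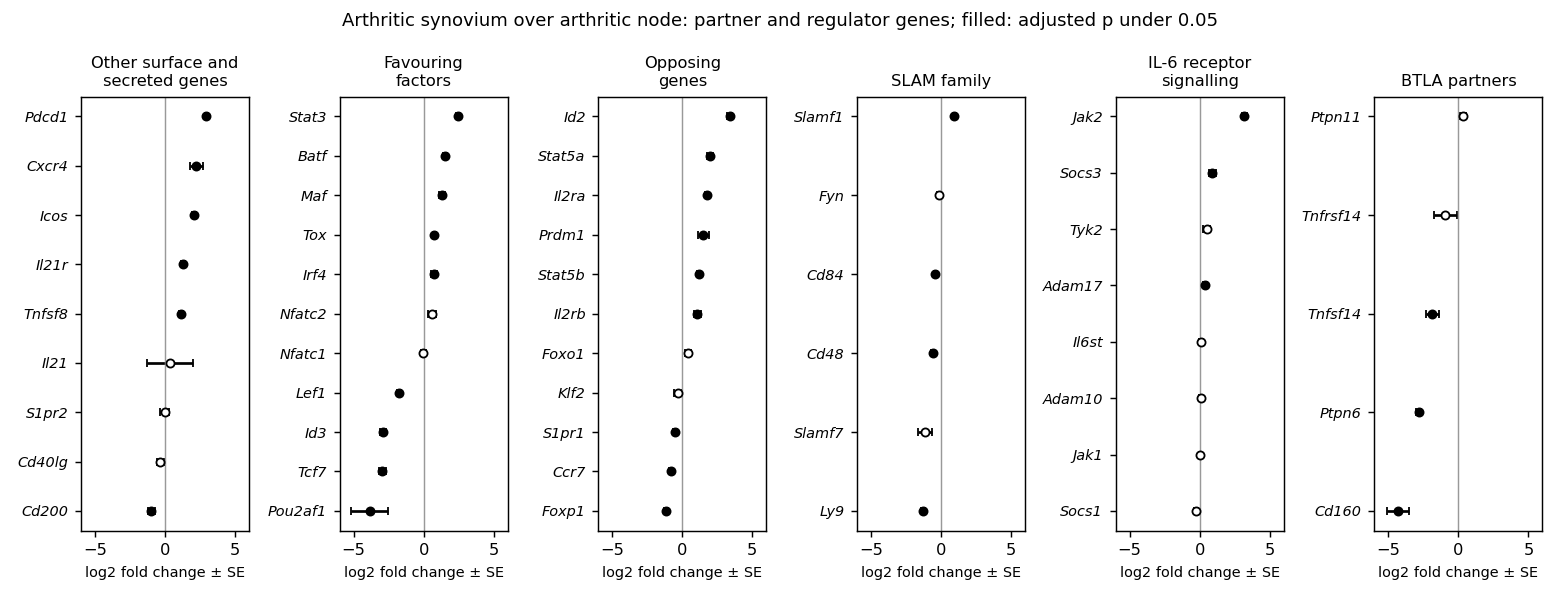
Difference of mean log2(normalized value + 1) between arthritic synovial and arthritic node Tregs (horizontal axis, bars are the limma standard error) for the genes shown of 6 lists, each sorted by the difference. Filled points passed an adjusted p under 0.05; Pdcd1 at 2.94 and Id2 at 3.39 lead their lists, and Tcf7 at -2.97 and Cd160 at -4.35 lie near or at the low end of theirs.

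Partners of the receptors moved unevenly. Of 11 SLAM family and adaptor genes 6 could be tested: Slamf1 rose by 0.95 ± 0.11, while Ly9 fell by 1.29 (SE 0.13), Cd48 fell by 0.61 (SE 0.12) and Cd84 fell by 0.41 (SE 0.11), the last lost without arthritic node library 1 (adjusted p = 0.0711) and without the mean-variance trend (0.0591). The SAP-related adaptor genes Sh2d1b1 and Sh2d1b2 had no read in any of the 9 libraries. Among the 8 tested of 9 IL-6 receptor signalling genes, 3 rose. Jak2, a kinase of cytokine receptors, rose by 3.19 ± 0.15 (adjusted p = 2.56e-08), while Il6st, the shared chain gp130 that pairs with Il6ra, differed by 0.11 ± 0.15 (adjusted p = 0.599), a sign that turned under quantile normalization (-0.12). Socs3, a feedback inhibitor of IL-6 signals, rose by 0.90 ± 0.27 (adjusted p = 0.0215), with 0.0970 on removal of synovial library 3, 0.0969 on removal of arthritic node library 1, 0.0739 under quantile normalization and 0.0737 without the trend. Adam17, a sheddase of the IL-6 receptor, rose by 0.39 ± 0.13 (adjusted p = 0.0333), a call lost on removal of any synovial library (0.0530 to 0.0705), of arthritic node library 1 (0.0695) or 2 (0.129), with edgeR (0.0620), with the mouse number as a block (0.0505), without the trend (0.0706) and under quantile normalization (0.341).

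BTLA partner genes fell in 3 of 5 cases. Cd160, another receptor for HVEM, averaged 11.6 ± 12.5 in synovial Tregs and 184 ± 108 in arthritic node Tregs (SD, n = 3 each), and fell by 4.35 (SE 0.79, adjusted p = 0.00112). Tnfsf14, the HVEM ligand LIGHT, fell by 1.86 (SE 0.44, adjusted p = 0.00590), and Ptpn6, which encodes the phosphatase SHP-1 that BTLA recruits, fell by 2.82 (SE 0.18, adjusted p = 2.75e-07). Tnfrsf14, which encodes HVEM, was low in synovial and arthritic node Tregs, at 13.0 ± 8.29 and 21.9 ± 6.62 (SD, n = 3), and differed by -0.93 ± 0.81 (adjusted p = 0.410). The 6 genes of BCL6 corepressors gave 0 calls by limma, edgeR and DESeq2 and 0 at an unadjusted p under 0.05, with a median of -0.13.

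In the disease comparison, Icos (0.95 ± 0.16, adjusted p = 0.0262), Id2 (1.53 ± 0.18, adjusted p = 0.0118) and Socs3 (2.26 ± 0.27, adjusted p = 0.0118) rose in arthritic nodes and were the only called genes among these lists of follicular, opposing and partner genes. None of the 3 passed in a fit of the 2 node groups alone (adjusted p = 0.202 for Icos and 0.108 for Id2 and Socs3) or without the mean-variance trend (0.298 for Icos, 0.122 for Id2 and 0.0994 for Socs3). Each was lost without arthritic node library 2 or 3, with adjusted p of 0.0825 and 0.0595 for Id2, 0.0825 and 0.0622 for Socs3 and 0.178 and 0.152 for Icos. Icos was also lost without control node library 1 (0.0865) or 2 (0.111) and without a filter on low values (0.0528). Maf differed by 1.03 ± 0.22 and Prdm1 by 1.58 ± 0.37 (adjusted p = 0.0996 and 0.132 by limma), and DESeq2 called both (adjusted p = 0.000739 and 0.00416). DESeq2 also called Il21r (0.60, adjusted p = 0.00345) and Batf (0.57, adjusted p = 0.0215) higher and Il2ra (-0.46, adjusted p = 0.0294) lower, none of them called by limma in this comparison (adjusted p = 0.0996, 0.163 and 0.190), where Il21r passed without control node library 3 (0.0356).

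Bcl6, Cxcr5, Slamf6 and Btla are also known in B cells, so markers of other cells were read beside them. The B cell markers Ms4a1 and Pax5 reached 8.82 and 3.48 at most in any library. The 13 measured B cell markers summed to 269 to 443 in synovial, 905 to 1189 in arthritic node and 735 to 891 in control node Tregs. Cd79b averaged 281 in synovial, 526 in arthritic node and 443 in control node Tregs. Cd22 was at 295, 372 and 262 in arthritic node Tregs, 0, 56.4 and 41.6 in synovial and 107, 96.6 and 0 in control node Tregs. By limma it differed by -4.51 ± 1.73 in the tissue comparison (adjusted p = 0.0629) and by 3.81 ± 1.73 in the disease comparison (adjusted p = 0.547). Of 6 tested, 2 fell in the tissue comparison, Bank1 (-5.60 ± 0.69) and Cd79b (-0.93 ± 0.27), a call lost for Cd79b on removal of synovial library 1 (adjusted p = 0.0692), arthritic node library 1 (0.0648) or library 3 of that group (0.0773). The 14 measured myeloid and dendritic markers summed to 1056 to 1441 in synovial, 94.3 to 519.8 in arthritic node and 162 to 411 in control node Tregs. Of 5 tested, Zbtb46, Xcr1 and Cd14 rose in the tissue comparison by limma. DESeq2 called only 1 of the 5, and Cd14 was not called (adjusted p = 0.171). Zbtb46 and Xcr1 made up most of the synovial sum, where Itgax, Clec9a, Fcgr1 and Mrc1 were at 0. Cd14 averaged 111 in synovial, 4.95 in arthritic node and 0 in control node Tregs. Lyz2 lay the other way, at 20.8 in synovial, 169 in arthritic node and 199.6 in control node Tregs, with a difference of -3.19 ± 1.44 from arthritic nodes (adjusted p = 0.110) and one of -4.14 ± 1.44 from control nodes (adjusted p = 0.0377). The 10 fibroblast markers summed to 151 to 3767 in synovial, 1.74 to 227 in arthritic node and 8.03 to 37.4 in control node Tregs, with the highest value in synovial library 3. Of 12 dissociation and stress genes 10 rose in synovium over arthritic nodes. The 12 summed to 109134 to 145245 in synovial, 13170.5 to 19972 in arthritic node and 12964.5 to 17013 in control node Tregs. The part of these other-cell and stress genes in the changes of the members was not tested.

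Genes whose levels were most like those of Bcl6 and Cxcr5 over the 9 libraries were taken by Pearson correlation of log2(value + 1), as a description in which the group difference is shared. For Bcl6 they were Kit (r = 0.995), the stem cell factor receptor gene, Slc35f6 (0.988), Rtn4 (0.987), Tank (0.985) and Cers4 (0.985). Kit averaged 587 ± 223 in synovial, 39.1 ± 21.4 in arthritic node and 49.6 ± 5.49 in control node Tregs (SD, n = 3). For Cxcr5 they were Fastkd1 (0.974), Smarcal1 (0.929), Mrpl27 (0.890), Tnfsf14 (0.889) and Ddx27 (0.881).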

How the data were processed

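RNA of sorted mouse Tregs was sequenced in 9 libraries, in 3 groups of 3 taken from the sample titles. Per the labels' protocols, libraries were made with a directional kit. The submitters' processing notes name HISAT2, HTSeq, DESeq2 and mm10, while versions, annotation and strand setting are not given in the sources used here. For each gene, the table of values that the authors deposited is a signal, counts scaled by each library's size factor: all nonzero values (100%) were whole multiples, within 0.01, of a library's smallest value, and reads were recovered by that division. The authors' deposited comparison table gives a mean signal, log2 fold changes with errors, a test score and p-values. Its direction was settled by rerunning DESeq2, which matched its log2 values for the 9 genes.

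The test was limma 3.58.1 (R 4.3.3) with a mean-variance trend on log2(value + 1), over genes with a mean of 10 or more, all 9 libraries in the fit, two-sided, with Benjamini-Hochberg adjustment. Titles give synovial and node libraries of arthritic mice the same mouse numbers. Residuals of same-numbered libraries correlated at 0.02, 0.05 and 0.09, and those of differently numbered synovial and arthritic node libraries at -0.086 to 0.041. Same-numbered arthritic and control node libraries, which are of different mice, gave 0.005, 0.067 and 0.070. Alternatives used edgeR 4.0.16 or DESeq2 1.42.0 on recovered reads and other settings. Positions are from GENCODE vM21 (GRCm38). The limma test was tried on simulated counts for the tissue comparison only. Members, lists and the named-gene rule (the 9 genes, 12 lists, and, outside the members, 5 genes most like Bcl6 and Cxcr5) were chosen with earlier results of these data known. Where nothing says that libraries came from separate cultures or mice beyond the titles, p-values measure the spread between these libraries. Values of some genes of the lists are not reported here, though the counts over lists include them.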

Additional observations from a re-analysis of the deposited data

How the results depend on the processing

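In the tissue comparison, 7 of the 9 genes were called, and 8 with the mouse number as a replicate block, which added Tox2 and changed no other member's call. Without a mean-variance trend 4 were called. Calls over all genes tested with the block or without the trend are not given here for this comparison or against control nodes. A shift of the members under these settings thus cannot be told from one of the whole table. Leaving out a library gave 3 to 7, beside 3039 to 3451 of the 11357 genes tested. Bcl6, Slamf6 and Il6ra were called throughout. In the disease comparison 0 members were called under every alternative, while genes called over the whole table numbered 39 in the chosen test, 10 without the trend, 0 with only the 2 node groups, 0 with a replicate block, 173 with DESeq2, and 0 to 66 with a library left out (0 without arthritic node library 2, 1 without library 3, 23 and 66 without control node libraries 2 and 3). Replicate numbers of control mice do not pair with those of arthritic mice. Against control nodes, 5 members were called, 6 with a replicate block and 4 to 6 with a library left out. Over all 11357 genes tested, 3823 to 4121 were called there with a library left out. Of 453 alternative values of the members, 407 kept direction and side of the threshold, 26 lost the call, 11 gained it and 9 turned sign. Sign changes fell on genes that were not called: Sostdc1 in the tissue comparison (0.42 and 0.14 without synovial or arthritic node library 1, range -1.05 to 0.42 with a library left out), in the disease comparison (-0.69 with edgeR, -0.71 with DESeq2) and against control nodes (-1.09 with edgeR, -1.06 with DESeq2, -0.24 without control node library 2, range -0.24 to 3.43), and Btla in the disease comparison (-0.040 without arthritic node library 1, -0.075 without control node library 3, range -0.075 to 0.31). Il6st turned to -0.12 under quantile normalization. The cause was not tested. Ascl2, Tox2 and Sostdc1 rest on few reads.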

Other observations

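Control node library 1 held 159 of the 162 control reads of Sostdc1, which had 5, 32 and 31 reads in the 3 synovial and 68, 11 and 34 reads in the 3 arthritic node libraries. The same control library had the highest Il21 of its group, at 66.2, against 23.5 and 0 in control node libraries 2 and 3.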
